A study of Mus musculus with 3 samples.

Results

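The genes described here are 8 basic helix-loop-helix (bHLH) genes of neurons and their partners, taken by symbol from the 14933 genes of the filtered count table. All 8 symbols were found there. They comprise the NeuroD genes *Neurod1*, *Neurod2* and *Neurod6*, the related repressor gene *Bhlhe22*, the E protein genes *Tcf4* and *Tcf12*, and the inhibitor genes *Id2* and *Id4*. Their expression was read as unique molecular identifiers (UMIs) from single-cell RNA sequencing of tdTomato-positive cells sorted from the medial prefrontal cortex (mPFC) of C57Bl6 mice at postnatal day 5 (P5).

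There was 1 library for each of 3 genotypes, named wild-type (Rbp4cre::tdTomato), heterozygous (Tbr1f/+::Rbp4cre::tdTomato) and homozygous (Tbr1f/f::Rbp4cre::tdTomato). *Tbr1* encodes a T-box transcription factor of deep-layer cortical neurons, and the study asked how its loss in layer 5 alters these neurons. All 3 libraries carried Rbp4-cre, which acts in layer 5 projection neurons from around birth, and the tdTomato reporter that Cre turns on, so the wild-type group was a Cre-positive control and floxed *Tbr1* was removed only where Cre was active. The number of animals behind a library is not given in the sources used here, and with 1 library per genotype there was no replicate error and no test between genotypes.

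Proteins of the bHLH family bind the DNA letters CANNTG, called an E-box, as pairs. NeuroD proteins pair with E proteins to turn on neuronal genes, while *Bhlhe22* lowers transcription of its targets and takes part in the identity and axon wiring of cortical projection neurons. Id proteins have the helix-loop-helix but no DNA-binding part, so an E protein held by an Id protein cannot bind an E-box, and Id genes are known for keeping glial and progenitor cells undifferentiated.

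The promoters of *Neurod2*, *Neurod6* and *Id4* are printed because they set the neuronal genes, whose promoters held E-boxes, beside an inhibitor gene whose promoter held none. Each stretch covers 250 to 11 bases before the RefSeq start on GRCm38.p6, 240 bases, 5′ to 3′ on the strand of the gene, with every CANNTG in capitals. *Neurod2* lies at chr11:98329656-98329895 on the minus strand, *Neurod6* at chr6:55681274-55681513 on the minus strand and *Id4* at chr13:48260866-48261105 on the plus strand.
Neurod2: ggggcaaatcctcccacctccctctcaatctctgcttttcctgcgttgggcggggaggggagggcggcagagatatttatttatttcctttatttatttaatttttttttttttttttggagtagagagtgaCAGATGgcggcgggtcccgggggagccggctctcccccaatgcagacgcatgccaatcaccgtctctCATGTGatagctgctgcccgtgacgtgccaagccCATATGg
Neurod6: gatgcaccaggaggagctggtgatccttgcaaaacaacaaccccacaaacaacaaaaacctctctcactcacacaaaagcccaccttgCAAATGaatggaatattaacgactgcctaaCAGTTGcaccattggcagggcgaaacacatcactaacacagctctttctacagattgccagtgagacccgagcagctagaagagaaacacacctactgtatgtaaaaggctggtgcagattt
Id4: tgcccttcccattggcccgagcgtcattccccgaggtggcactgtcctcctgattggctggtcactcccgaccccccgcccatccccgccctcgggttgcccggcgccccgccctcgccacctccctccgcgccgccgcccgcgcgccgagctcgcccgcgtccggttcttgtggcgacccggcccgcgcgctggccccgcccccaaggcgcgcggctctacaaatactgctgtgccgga
The *Neurod2* promoter held 3 E-boxes, with CAGATG farthest from the start, CATGTG between and the letters CATATG nearest, 12 bases before it. The *Neurod6* promoter held 2, of which CAAATG was the farther and CAGTTG the nearer, 127 bases before the start. Of the other members, *Neurod1* had 1 E-box (CATATG) and *Id2* had 1 (CAGCTG), and the 3 start sites of *Tcf12* had 0, 1 and 1. RefSeq entries matched 6 of the 8 members, with 8 start sites in all.

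Among all 32851 promoter windows of this length in the table, 65% held CANNTG, which reads the same on either strand. The letters CAGATG (read as CATCTG on the other strand) were found in 14.1% and CAGCTG in 12.4% of the windows, and a match to either is also a match to CANNTG. The E-box CACGTG (5.69% of windows) and the T-box letters AGGTGTGA (read as TCACACCT on the other strand, 1.07% of windows) were found in none of the 8 windows of the members. These matches describe letters and do not show binding.

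In GRCm38 the members are protein-coding genes, at chr2:79452521-79456751 for *Neurod1*, chr11:98325415-98329648 for *Neurod2*, chr6:55677822-55681263 for *Neurod6*, chr3:18054174-18057517 for *Bhlhe22*, chr9:71842688-72111871 for *Tcf12*, chr12:25093799-25097140 for *Id2* and chr13:48261228-48266026 for *Id4*.

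Cells were divided by the lists of the authors into typical neuronal cells (1778 wild-type, 5357 heterozygous and 3935 homozygous), atypical neuronal cells (304, 107 and 462 in the same order) and the other sorted cells, outside the neuronal list (2873, 1398 and 1182). The whole libraries held 33322518 to 55057757 UMIs, and the median typical cell 1901, 1743 and 1375 UMIs. The 3 libraries also differed in RNA of other cells, in mitochondrial share and in Y-linked UMIs, which cannot be told apart from genotype. The median mitochondrial share of typical cells was 10.4% in wild-type, 15.4% in heterozygous and 12.5% in homozygous cells. In typical cells all 5 blood markers together had 345, 44.6 and 85.8 UMIs per 1000000 UMIs of the group (CPM), all 9 endothelial markers 123, 37.2 and 62.4 CPM, and all 10 excitatory neuron markers 3625, 4290 and 5080 CPM. All 7 immature neuron markers together were highest in wild-type cells, at 5575, 4925 and 4891 CPM. The 10 astrocyte or radial glia markers together had 7093, 6175 and 7019 CPM in typical cells, the most of any marker list in each library. How much of this was free RNA was not tested. A Y-linked UMI was found in 44 wild-type, 0 heterozygous and 151 homozygous typical cells, and the 0 of 5357 allows a share of up to 0.056%. A UMI of *Xist* was found in 38, 60 and 27 of these cells, so 2 libraries had both kinds. Between 37 and 58 cell barcodes were shared by any pair of libraries, at most 1.04% of the smaller library. *Tbr1* itself had 27.5, 30.7 and 22.4 CPM in typical cells, but the counted 3′ end lies outside the deleted exons, so these values check nothing about the deletion.

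In typical neuronal cells, *Neurod6*, an activator of projection neuron genes, and *Bhlhe22* were higher in both mutant libraries than in the wild-type library. The *Neurod6* level was 201 CPM (95% interval 187 to 216) in wild-type cells, 246 CPM (236 to 255) in heterozygous and 240 CPM (228 to 252) in homozygous cells. The *Bhlhe22* level was 63.5 CPM (55.6 to 72.2) in wild-type cells, 97.0 CPM (91.2 to 103) in heterozygous and 98.0 CPM (90.2 to 106) in homozygous cells. For both genes the wild-type interval lay below both mutant intervals, which overlapped each other. These intervals and all others given here cover counting error only, and how far 2 libraries of 1 genotype would differ is not known.

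*Neurod2*, which drives maturation and synapse formation of cortical neurons, did not separate the libraries, at 41.1 CPM in wild-type cells (34.8 to 48.2), 39.5 CPM in heterozygous (35.8 to 43.6) and 44.0 CPM in homozygous cells (38.8 to 49.6), with overlapping intervals. *Neurod1*, an earlier member of the cascade, was read from only 38, 66 and 39 UMIs, or 10.4 CPM (7.33 to 14.2), 6.34 CPM (4.90 to 8.06) and 6.42 CPM (4.57 to 8.78). Its wild-type level was the highest, with an interval that overlapped those of both mutants.

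*Tcf4*, the E protein gene that pairs with proneural factors, went the other way. It had 169 CPM (156 to 183) in wild-type cells, 145 CPM (138 to 152) in heterozygous and 144 CPM (135 to 154) in homozygous typical cells, so the wild-type interval lay above both mutant intervals. *Tcf12*, the other E protein gene, had 31, 74 and 51 UMIs, or 8.45, 7.10 and 8.40 CPM, with no separation at this depth.

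Of the inhibitors, *Id2*, which in cortex is also a gene of neurons in layer 5 and in upper layers, had 111 CPM (101 to 122) in wild-type cells, 160 CPM (152 to 168) in heterozygous and 154 CPM (144 to 164) in homozygous typical cells. The wild-type library was again the low one, without overlap. How many other genes separate the wild-type library from both mutants by such intervals was not computed. The separation of *Neurod6*, *Bhlhe22*, *Tcf4* and *Id2* therefore does not by itself set them apart from other genes. *Id4*, a gene of neural precursors and astrocytes, had 21.5, 16.6 and 20.1 CPM, and its intervals overlapped.

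**Figure D1:**
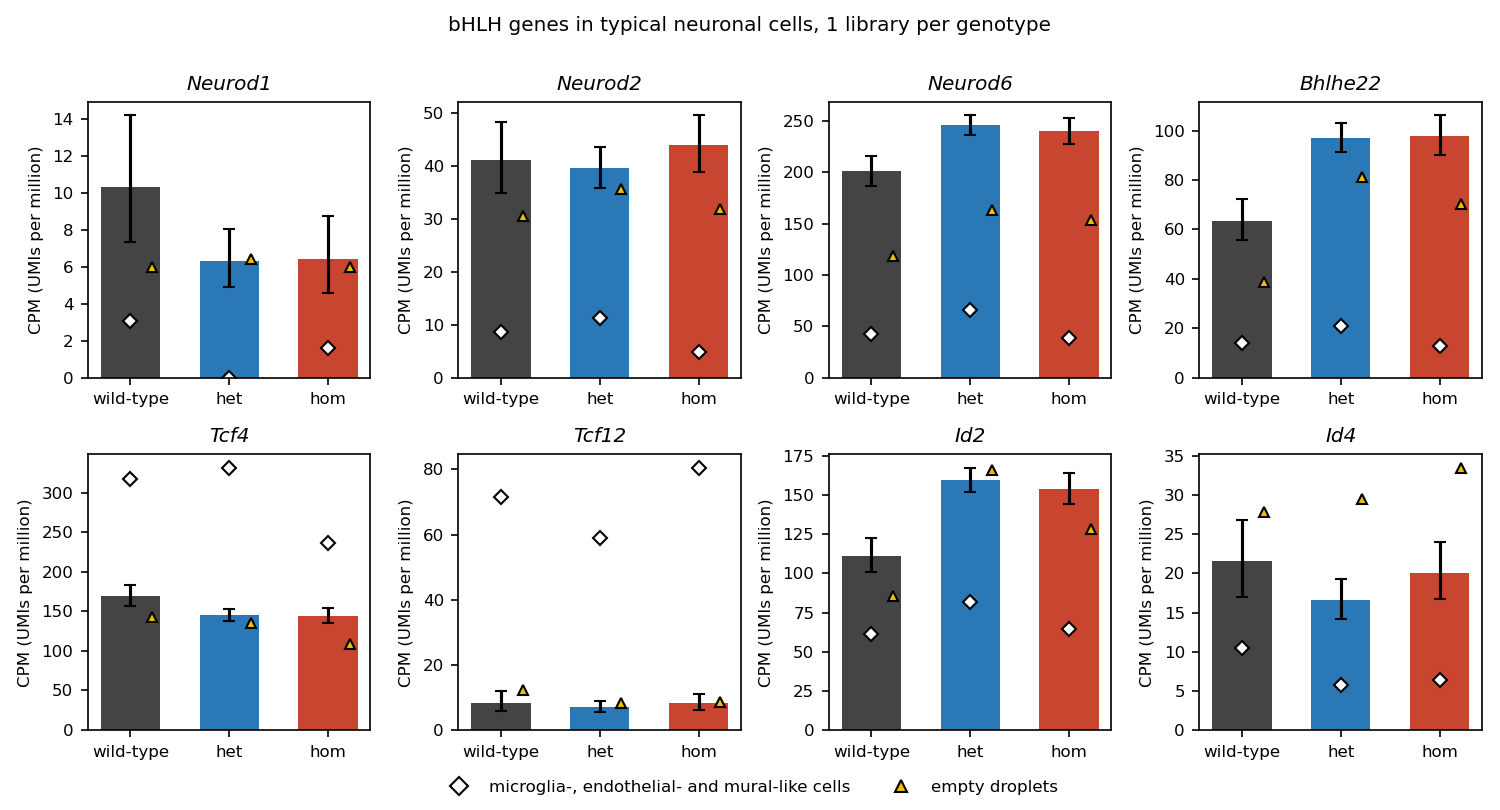
Level of each of the 8 genes in typical neuronal cells, in CPM on a linear axis of its own for each gene, with a bar for each library, error bars for the exact Poisson 95% interval, diamonds for microglia-like, endothelial-like and mural-like cells together and triangles for empty droplets. The wild-type bars of *Bhlhe22* (63.5 CPM) and *Id2* (111 CPM) stand below both mutant bars (97.0 and 98.0 CPM, and 160 and 154 CPM), and the diamonds of *Tcf4* and *Tcf12* lie above the bars.

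The share of typical cells with at least 1 UMI, after every cell had been thinned to 1000 UMIs, kept the order of the levels for *Neurod6*, *Bhlhe22* and *Id2*. For *Neurod6* it was 16.9% in wild-type, 20.9% in heterozygous and 20.3% in homozygous cells (31.7%, 34.6% and 28.9% before thinning, where the homozygous cells were the shallowest). For *Bhlhe22* it was 5.51%, 8.18% and 8.61% (11.5%, 15.8% and 13.3% before thinning). *Neurod2* was detected in 4.67%, 3.75% and 4.42%, *Tcf4* in 14.5%, 13.2% and 12.7% and *Id2* in 10.4%, 14.1% and 13.3% of the thinned cells, while *Neurod1* and *Tcf12* stayed under 1% in each library.

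Free RNA in the droplets was gauged in microglia-like, endothelial-like and mural-like cells, which should lack NeuroD genes. There, at a median of 2695, 2218 and 1879 UMIs before thinning, 4.82%, 5.58% and 4.02% of cells had a *Neurod6* UMI and 1.61%, 0.508% and 1.20% a *Bhlhe22* UMI. The *Neurod6* level in these cells was 42.6, 66.4 and 38.7 CPM, with a log2 ratio of 0.64 (0.01 to 1.25) for heterozygous over wild-type and −0.14 (−0.87 to 0.55) for homozygous over wild-type. *Tcf4* was found in 23.3%, 24.9% and 20.1% of the same cells, a higher share than in typical neuronal cells in every library, and its log2 ratio there was −0.42 (−0.70 to −0.15) for homozygous and 0.07 (−0.19 to 0.32) for heterozygous over wild-type. For *Id2* the ratios in these cells were 0.08 (−0.49 to 0.62) and 0.42 (−0.13 to 0.95) in the same order. The same cells had 317, 332 and 237 CPM of *Tcf4*, above the 142, 135 and 109 CPM of droplets without a cell. Their *Tcf4* therefore does not gauge free RNA, and whether they express *Id2* was not tested.

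Droplets without a cell, taken as barcodes with 100 to under 500 UMIs, also had lower *Bhlhe22*, *Id2* and *Neurod6* in the wild-type library than in the mutants. *Bhlhe22* had 38.9 CPM in the wild-type, 81.3 CPM in the heterozygous and 70.4 CPM in the homozygous empty droplets, and *Id2* had 85.9, 166 and 128 CPM. *Neurod6* had 118, 164 and 153 CPM there. In empty droplets the log2 ratio over wild-type was 0.86 in homozygous and 1.06 in heterozygous for *Bhlhe22*, and 0.58 and 0.95 for *Id2*, each larger than in typical cells. The homozygous over heterozygous log2 ratio there was −0.21 (−0.35 to −0.06) for *Bhlhe22* and −0.37 (−0.47 to −0.27) for *Id2*. For *Tcf4* they had 142, 135 and 109 CPM, with a ratio of −0.07 (−0.18 to 0.03) for heterozygous over wild-type and −0.38 (−0.48 to −0.29) for homozygous over wild-type. For *Neurod1* the empty droplets gave 6.01, 6.46 and 5.99 CPM, without the higher wild-type value of the typical cells. *Id4* was higher in empty droplets (27.8, 29.5 and 33.5 CPM) than in typical cells of the same library.

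The comparison of genotypes asked which members differed in typical neuronal cells by a log2 CPM ratio of at least 0.5 in size. For homozygous over wild-type, *Bhlhe22* was higher by 0.63 (0.40 to 0.85), a 1.54-fold difference, and *Neurod1* lower at −0.69 (−1.37 to −0.01), so 2 of 8 members were past that size. Of the 4261 genes whose mean reached 20 CPM, 8.8% were past it (5.54% higher and 3.26% lower). The 3 members *Neurod1*, *Tcf12* and *Id4* had a lower mean and were not among these genes, and of the other 5 only *Bhlhe22* was past 0.5. Without the limit on CPM, 4485 of 14043 genes were past 0.5. *Id2* came to 0.47 (0.30 to 0.64), *Neurod6* to 0.26 (0.13 to 0.39) and *Tcf4* to −0.23 (−0.38 to −0.08). With other ways of scaling *Id2* ranged from 0.05 to 0.52 here, so its place under 0.5 depended on the scaling.

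For heterozygous over wild-type, 3 members were past 0.5, 2 of them among the 5 with a mean of at least 20 CPM, where the 4261 genes above that mean gave 10.3% (6.52% higher and 3.83% lower). Without the limit on CPM, which *Neurod1* did not meet, 4574 of 14125 genes were past 0.5. *Bhlhe22* was at 0.61 (0.41 to 0.82), a 1.53-fold difference, *Id2* at 0.52 (0.37 to 0.68) and *Neurod1* at −0.71 (−1.31 to −0.09). Over the alternatives *Id2* ranged from 0.40 to 0.64 in this comparison, so its place past 0.5 depended on the scaling. *Neurod6* was at 0.29 (0.17 to 0.41) and *Tcf4* at −0.23 (−0.36 to −0.09). Both comparisons used the same wild-type library, so they are not independent of each other. Over the 4261 genes the standard deviation of the log2 ratio was 0.31 for homozygous and 0.36 for heterozygous over wild-type.

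Between the mutant libraries no member was past 0.5, where the 4261 genes gave 1.95% (1.08% higher and 0.868% lower), or 3149 of 14313 genes without the limit on CPM. The homozygous over heterozygous log2 ratio was 0.01 for *Bhlhe22* (−0.14 to 0.16), −0.05 for *Id2* (−0.17 to 0.06), −0.03 for *Neurod6* (−0.13 to 0.06) and −0.01 for *Tcf4* (−0.13 to 0.11). The members spanned −0.05 to 0.27.

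The median ratio of the 8 members was 0.04 for homozygous over wild-type, −0.14 for heterozygous over wild-type and 0.02 for homozygous over heterozygous, and that of the 5 members with a mean of at least 20 CPM was 0.26, 0.29 and −0.01, beside 0.08, 0.06 and 0.01 for the 4261 genes above that mean. In the microglia-like, endothelial-like and mural-like cells, the log2 ratio of *Bhlhe22* was −0.14 (−1.51 to 1.07) for homozygous over wild-type and 0.56 (−0.63 to 1.65) for heterozygous over wild-type. Subtraction of the empty-droplet profile, at an upper limit for its share in each library, left 2 members past 0.5 for homozygous over wild-type. For heterozygous over wild-type it left 1, *Neurod1*, and there *Bhlhe22* came to 0.46 and *Id2* to 0.40. The share of all genes past 0.5 after this subtraction was not computed, so these counts are descriptions. Counted as mean UMIs per cell, without division by depth, the homozygous over wild-type ratio fell to 0.21 for *Bhlhe22* and turned to −0.16 for *Neurod6*, while the median of all genes moved to −0.34. The part of sex, mitochondrial share, blood, vascular or astroglial RNA in these ratios was not tested.

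**Figure D2:**
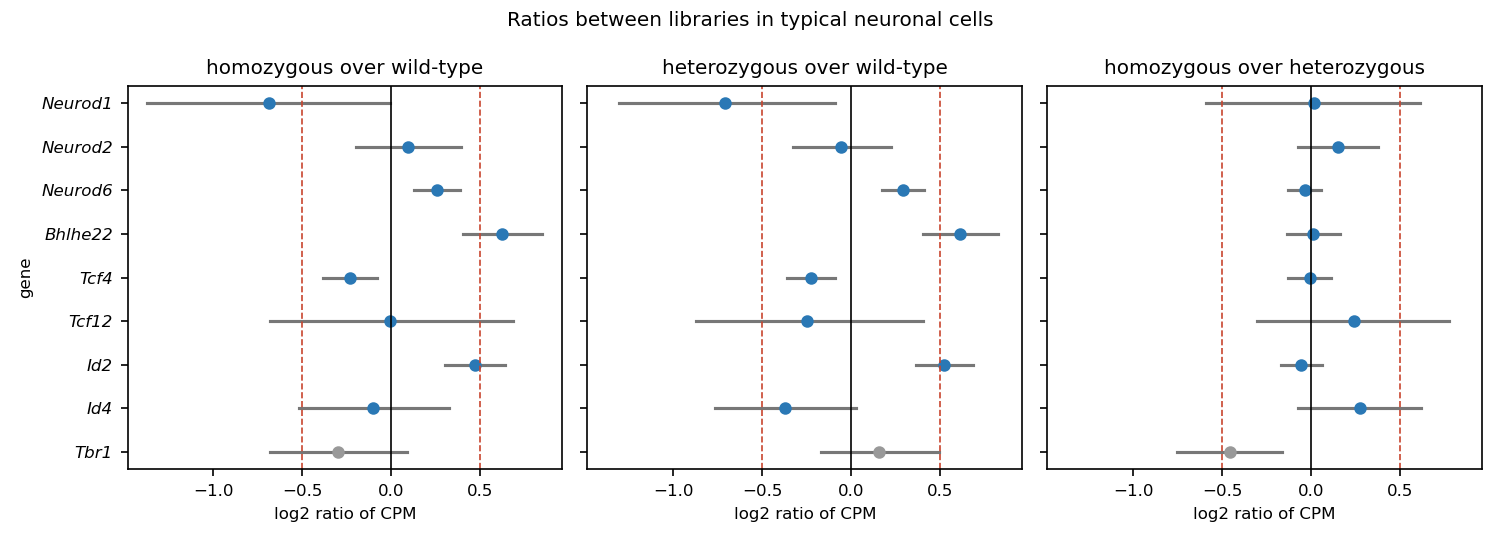
Log2 CPM ratios of the 8 genes (blue points) and of *Tbr1* (grey points) in typical neuronal cells for the 3 pairs of libraries, with horizontal lines for the exact 95% counting interval and dashed lines at the size of 0.5 in each direction. *Bhlhe22* stands at 0.63 and 0.61 over wild-type and at 0.01 between the mutants, whereas *Neurod1* stands at −0.69 and −0.71 with a wide interval.

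*Neurod2*, *Neurod6* and *Bhlhe22* were higher in typical neuronal cells than in the cells outside the neuronal list in each library, and *Tcf4*, *Tcf12* and *Id4* were lower. *Neurod1* was separated in the wild-type library only, and the direction of *Id2* turned with the scaling. Since the neuronal clusters had been picked by *Nrgn*, *Rorb* and *Cnih2* and the authors' clustering could use the members, these contrasts are descriptions.

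The typical over outside log2 ratio of *Neurod6* was 1.69 in wild-type, 0.74 in heterozygous and 1.43 in homozygous cells, from outside levels of 62.3, 147 and 89.1 CPM. For *Bhlhe22* it was 1.81, 0.37 and 1.33, from outside levels of 18.1, 75.3 and 39.1 CPM. In both genes the heterozygous library, whose outside cells held most of the excitatory neuron-like cells, had the smallest contrast. *Neurod2* gave 1.08, 0.32 and 1.23. *Neurod1* gave 1.43 (0.72 to 2.15) in wild-type and 0.45 (−0.29 to 1.25) in heterozygous cells, and in homozygous cells 0.29 (−0.63 to 1.28), which turned to −0.28 with thinned cells.

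*Tcf4* was at 588, 353 and 369 CPM in outside cells, and its typical over outside ratio was −1.80, −1.28 and −1.35. *Tcf12* had the largest contrast of the members, at −3.03, −2.30 and −2.87, from outside levels of 69.1, 35.0 and 61.3 CPM. *Id4* was at −1.76, −1.51 and −1.37. For *Id2* the values were small, −0.39, −0.13 and −0.19, and they turned to 0.07, 0.01 and 0.11 with median-of-ratios scaling.

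The atypical cells had been set apart by the authors for low *Neurod6* and *Nrgn*, so the low *Neurod6* in them is part of their definition. The paper also describes them as high in housekeeping genes, and the part of this in the ratios below was not tested. *Bhlhe22* was lower too, though its pattern over cell groups was close to that of *Nrgn*, so this is not independent of the choice. It was at 20.7, 27.7 and 24.2 CPM, and its atypical over typical log2 ratio was −1.62 (−2.51 to −0.84), −1.81 (−3.26 to −0.68) and −2.02 (−2.78 to −1.35). *Neurod2* fell short of the typical level as well, with 9 UMIs in wild-type (a ratio of −1.63), 11 in homozygous (−1.57) and 0 in heterozygous atypical cells (interval 0 to 17.1 CPM). *Id2* was at −1.10, −0.65 and −0.89.

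*Id4* stood higher in atypical cells, with 48.8, 18.5 and 60.4 CPM, but the 4 heterozygous UMIs leave its ratio there at 0.16 with an interval of −1.74 to 1.54, beside 1.18 (0.55 to 1.79) in wild-type and 1.59 (1.06 to 2.09) in homozygous cells. *Tcf12* gave 0.81, 1.38 and 0.94, with intervals that reached below 0. *Tcf4* was the member whose sign differed between libraries, at 0.30 in wild-type and below 0 in both mutants. *Neurod1* had 1, 1 and 2 UMIs in these cells, too few for a direction.

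**Figure D3:**
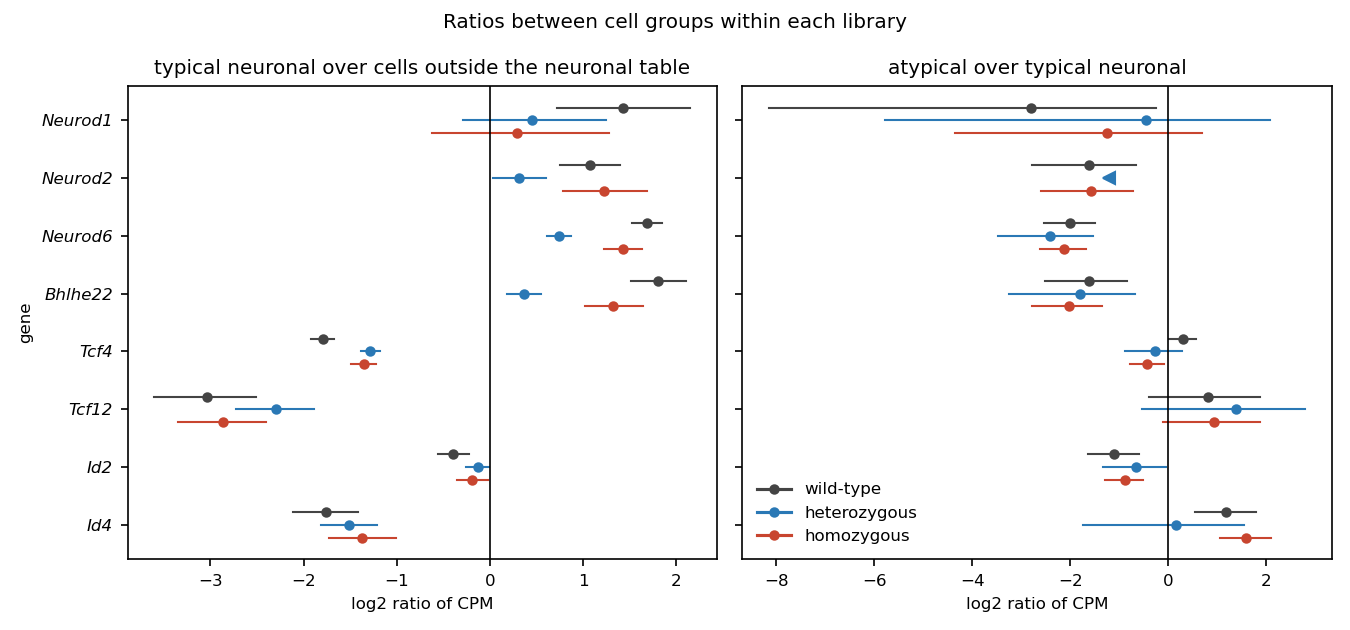
Log2 CPM ratios of the 8 genes within each library, typical over outside cells on the left and atypical over typical cells on the right, with a point for each library, lines for the exact 95% counting interval and a triangle at the upper bound of *Neurod2* in heterozygous atypical cells, which had 0 UMIs. *Neurod6* and *Bhlhe22* lie above 0 in the first contrast and below 0 in the second, while *Tcf12* reaches −3.03 in the first.

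The cells outside the neuronal list fell into 21 clusters, of which 18 with at least 50 cells were set beside typical and atypical cells. The order of levels over these 20 groups sums the 3 libraries, whose shares differ between groups, so it also carries differences between libraries. *Neurod6* was highest in typical cells (236 CPM, 229 to 243) and in a cluster of 319 excitatory neuron-like cells (231 CPM, 208 to 257), which did not differ beyond counting error. It then came down to 183 CPM in a cluster led by *Prc1* and *Nefl*, 165 CPM in one led by *Crybb1* and *Aif1*, and 124 CPM in inhibitory neuron-like cells. The interval of each overlapped that of the group before, but overlap does not show that a step is within counting error. Ratios between these groups were not computed. The first of these unnamed clusters had neuronal genes beside genes of cycling cells, and the second beside genes of microglia, and whether they hold doublets was not tested. The inhibitory neuron-like cluster had 6 inhibitory neuron markers up, but also 5 striatal projection neuron and 3 excitatory neuron markers. Its *Tbr1* level was 36.1 CPM, beside 27.6 CPM in typical cells. Whether it mixes cell types was not tested, so its NeuroD levels may not be those of inhibitory neurons. Microglia-like cells had 52.9 CPM (35.1 to 76.4) and atypical cells 51.9 CPM (41.5 to 64.2), and the 2 endothelial-like clusters had 43.0 CPM (33.5 to 54.5) and 16.9 CPM (4.60 to 43.2).

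*Bhlhe22* was highest in the excitatory neuron-like cluster, at 142 CPM (124 to 163), with typical cells at 91.2 CPM (87.1 to 95.5). It was the second of the leading genes of that cluster, beside *Nrgn*, *Camk2a* and *Cux2*, an upper-layer gene, and although the 8 members were left out of the clustering, the genes that vary with it were not, so its level there is a description. The cluster held 44 wild-type, 256 heterozygous and 19 homozygous cells, and *Bhlhe22* in it was at 100 CPM (60.3 to 156), 145 CPM (125 to 168) and 211 CPM (116 to 355). In the *Prc1* and *Nefl* cluster it was at 26.7, 58.4 and 89.1 CPM from 8, 25 and 27 UMIs, and in the *Crybb1* and *Aif1* cluster at 38.3, 73.3 and 61.1 CPM from 9, 50 and 18 UMIs. The wild-type value was the lowest in each of these 3 clusters, of which the last 2 mix genes of several cell types, though only in the *Prc1* and *Nefl* cluster did its interval (11.5 to 52.6) clear that of a mutant (58.7 to 130 in homozygous cells). Low wild-type values were also found in some clusters not named as excitatory neuron-like, and not in others. The astrocyte or radial glia-like cluster of 795 cells had 15.6 CPM (9.75 to 23.6) in wild-type, 65.3 CPM (41.4 to 98.0) in heterozygous and 29.3 CPM (14.1 to 53.9) in homozygous cells. Inhibitory neuron-like cells had 9.35 CPM (2.55 to 23.9) in wild-type, 17.3 CPM (6.97 to 35.7) in heterozygous and 46.3 CPM (27.4 to 73.2) in homozygous cells. In the endothelial-like cluster of 518 cells the homozygous value was the lowest, at 14.8, 21.0 and 10.8 CPM with overlapping intervals. In the *Pdgfra* cluster wild-type cells had 15.5 CPM (6.22 to 31.9), beside 0 UMIs in 6 heterozygous cells (0 to 231 CPM) and in 22 homozygous cells (0 to 93.8 CPM). No order of the libraries can be read from these intervals.

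A cluster of 69 cells led by *Reln*, *Ndnf* and *Nhlh2* had 87.3 CPM of *Bhlhe22* (59.7 to 123, from 19 wild-type, 13 heterozygous and 0 homozygous UMIs) with 2.73 CPM of *Neurod2* and 19.1 CPM of *Neurod6*, so *Bhlhe22* was high there without the NeuroD genes that accompanied it in typical cells. *Tbr1* was at 262 CPM in it. *Reln* encodes reelin, a secreted protein that guides cortical layering, and the cluster was left unnamed.

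*Neurod2* had 48.5 CPM in the *Prc1* and *Nefl* cluster, 41.2 CPM in typical cells, 41.0 CPM in inhibitory neuron-like cells and 39.8 CPM in excitatory neuron-like cells, and the intervals of neighbors in this order overlapped. In inhibitory neuron-like cells, a cluster that also had striatal and excitatory neuron markers up, the libraries ranged from 15.4 to 74.8 CPM. *Neurod1* was highest, at 15.3 CPM (9.78 to 22.7, 24 UMIs), in a cluster of 768 cells led by *Igfbpl1*, *Dlx6os1* and *Sp8* with *Sox11*, genes of newborn neurons and of ventral interneuron lineages. Within each library its interval overlapped that of typical cells, at 14.1 CPM (8.34 to 22.2) in wild-type, 13.0 CPM (1.57 to 46.8) in heterozygous and 28.8 CPM (7.85 to 73.8) in homozygous cells of the cluster.

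That same cluster had the highest *Tcf4*, at 1167 CPM (1114 to 1221), and the value was high in each library, 1146 CPM in wild-type cells, 1431 CPM in heterozygous cells and 1066 CPM in homozygous cells. Cycling-like cells followed with 991 CPM (934 to 1050) and inhibitory neuron-like cells with 699 CPM (653 to 747, libraries 628 to 739). Oligodendrocyte lineage-like cells led by *Pdgfra* had 604 CPM and astrocyte or radial glia-like cells 518 CPM. Typical cells, at 149 CPM (144 to 155), were the 19th of the 20 groups.

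*Tcf12* was highest in a cluster of 86 oligodendrocyte lineage-like cells, 178 CPM (138 to 225), then in the cluster of that class led by *Pdgfra*, 146 CPM, in meningeal fibroblast-like cells, 131 CPM, and in cycling-like cells, 105 CPM. These neighbors overlapped. Typical cells had 7.74 CPM (6.57 to 9.05), and atypical cells 15.9 CPM (10.4 to 23.3), with overlapping intervals within each library, while excitatory neuron-like cells had 6.07 CPM.

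*Id2* and *Id4* shared their highest group, 79 astrocyte or radial glia-like cells led by *Gfap*, with 1175 CPM of *Id2* (1057 to 1303) and 355 CPM of *Id4* (291 to 428). For *Id2* the libraries there gave 922, 1748 and 1249 CPM from 46, 17 and 16 cells. The larger astrocyte or radial glia-like cluster of 795 cells had 370 CPM of *Id2* (345 to 397) and 148 CPM of *Id4* (132 to 165), and in it *Id2* was at 328 CPM (298 to 359) in wild-type cells, 434 CPM (368 to 509) in heterozygous cells and 481 CPM (410 to 560) in homozygous cells. In cycling-like cells the wild-type *Id2* was instead the highest, at 88.9 CPM beside 57.1 and 51.0 CPM, on 5 and 3 mutant UMIs with overlapping intervals.

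Typical neurons had 149 CPM of *Id2* (144 to 155), which overlapped the oligodendrocyte lineage-like cells led by *Pdgfra* (144 CPM, 113 to 181), and inhibitory neuron-like cells had 70.5 CPM (56.4 to 87.0). The other oligodendrocyte lineage-like cluster, of 86 cells, had the lowest *Id2* of the 20 groups, 15.5 CPM (5.67 to 33.7). Within the wild-type library typical cells (111 CPM) overlapped the *Pdgfra* cluster (126 CPM, 95.4 to 163) and the *Igfbpl1* cluster (113 CPM, 95.6 to 133). *Id4* instead went on to the *Igfbpl1* cluster (134 CPM) and cycling-like cells (130 CPM), which overlapped, and was at 50.1 CPM in atypical and 18.5 CPM in typical cells.

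**Figure D4:**
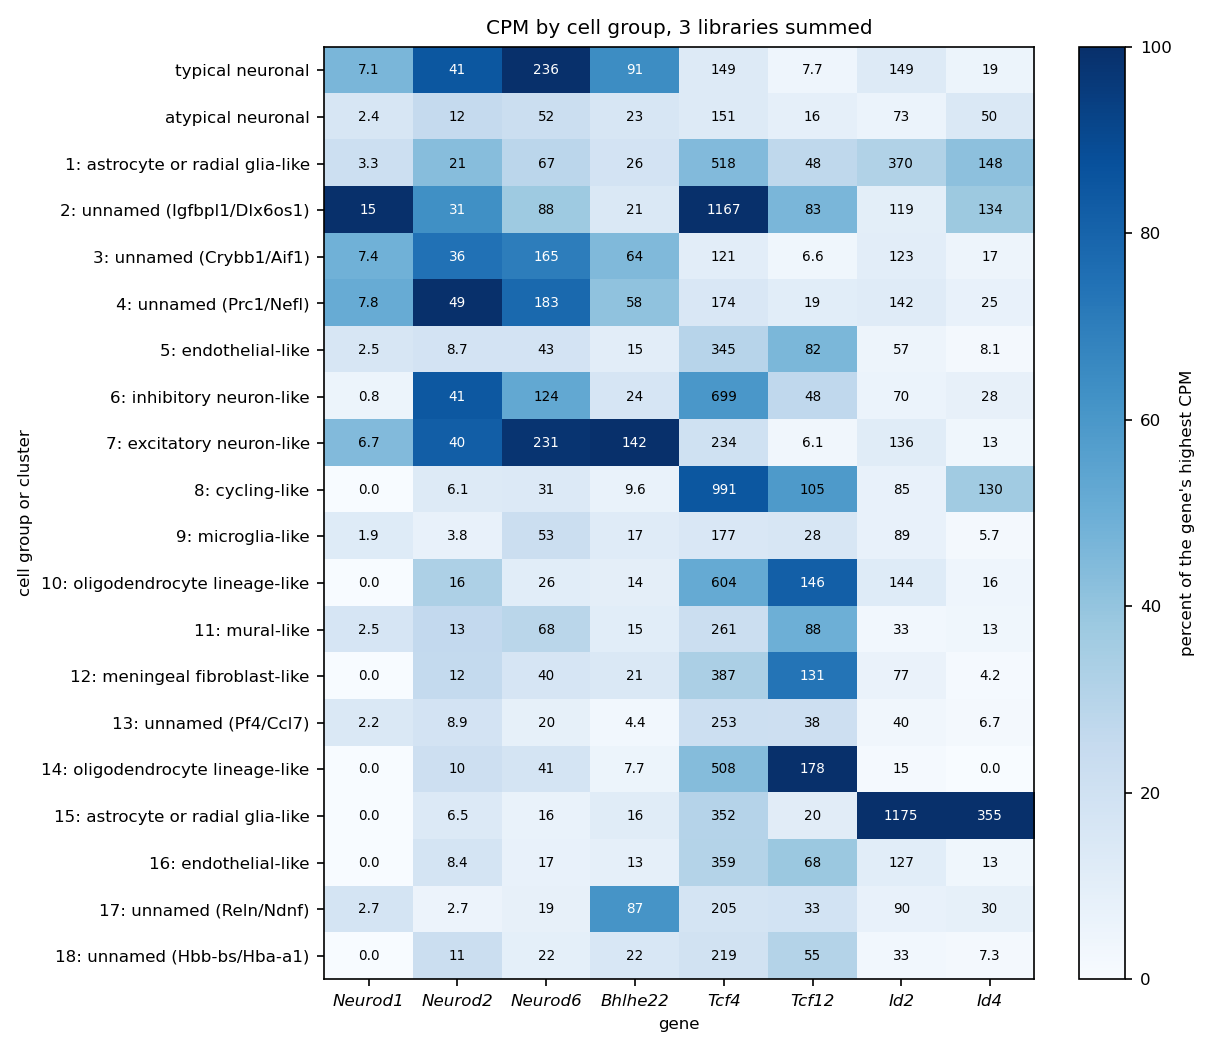
Level of the 8 genes in typical and atypical neuronal cells and in the 18 clusters of other sorted cells with at least 50 cells, with the 3 libraries summed, the CPM printed in each field and the color giving its percent of the highest CPM of that gene. *Neurod6* and *Bhlhe22* are dark in typical and excitatory neuron-like cells, *Tcf4* is darkest in the *Igfbpl1* cluster (1167 CPM) and *Id2* and *Id4* in the *Gfap* cluster (1175 and 355 CPM).

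The genes most like each member were taken by Pearson's r of log2(CPM + 1) over 34 groups of cells, each a cell group or cluster of 1 library with at least 50 cells, among 5708 genes. The groups share libraries, depth and free RNA, so the values are descriptions. *Bhlhe22* was most like *Nrgn* (r = 0.87), the calmodulin-binding neurogranin gene that helped to pick the neuronal clusters, then *Fkbp1b* (0.87) and *Nefl* (0.84). *Neurod6* was most like *Ppfia3* (0.86), *Gng13* (0.85) and *Arhgdig* (0.85), and *Neurod2* most like *Zbtb18* (0.75), *Tpgs2* (0.75) and *Fam124a* (0.74).

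*Neurod1* reached no more than 0.66 with *Ociad2*, 0.63 with *Samd14* and 0.63 with *Apc*, on few UMIs. *Tcf4* was most like *Ccdc88a* (0.92), *Dhx30* (0.91) and *Sfpq* (0.91), and *Tcf12* most like *Zkscan3* (0.89), *Zfp280d* (0.89) and *Tmed4* (0.89). The pattern of *Id2* was closest to those of *Ncan* (0.88), an astroglial proteoglycan gene, *Acsbg1* (0.84) and *Rorb* (0.83). For *Id4* the closest were *Gm17750* (0.87), *Pax6* (0.81), a gene of neural precursors, and *Pou3f3* (0.81). No member was among the closest genes of another.

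Within typical cells thinned to 1000 UMIs, 23 wild-type, 94 heterozygous and 86 homozygous cells had a UMI of both *Neurod6* and *Bhlhe22*, or 1.39, 1.03 and 1.25 times the product of the separate shares. *Neurod6* and *Id2* were found together in 33, 157 and 94 cells, 1.05, 0.99 and 0.88 times that product. *Bhlhe22* and *Id2* came to 1.37, 0.87 and 0.93 times. No interval was computed for these values.

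Other genes of the bHLH family numbered 78 by list, of which 59 were in the table and 18 had a mean of at least 20 CPM in typical cells. For homozygous over wild-type, 1 of the 18 was at least 0.5 higher and 1 at least 0.5 lower, with a median of 0.04, where the 4261 genes gave 8.8%. The first was *Hes1*, a Notch effector that holds back neuronal differentiation, at 0.65 (0.26 to 1.04), and the second *Olig2*, a factor of the oligodendrocyte lineage, at −0.55 (−0.92 to −0.17). Its level in empty droplets was not computed, and the wild-type library held 158 of the 186 cells of the *Pdgfra* cluster, where *Olig2* is high. For heterozygous over wild-type none of the 18 was past 0.5 (10.3% of the 4261 genes), with values from −0.49 for *Olig2* (−0.82 to −0.15) to 0.45 for *Hey1* (0.04 to 0.87), another Notch effector. Between the mutants *Id1* was at 0.50 (0.17 to 0.82) and *Usf1* at −0.73 (−1.05 to −0.41), where 1.95% of the 4261 genes were past 0.5.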

How the data were processed

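Deposited matrices held UMI counts for every barcode, made by the authors with Cell Ranger 2.0.1 (submitters' processing notes) on mm10 without normalization. Per the file headers, the filtered table holds raw counts for 14933 genes in 17396 cells, which the authors filtered on mitochondrial content, UMIs and detected genes. The mitochondrial column was deposited as a fraction. The authors' log-transformed and scaled tables of neuronal cells were not used. How the authors treated doublets is not stated in the sources used here. No doublet caller was run, and an alternative without the top 5% of cells by UMIs stood in for one.

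UMIs were summed per library over typical (RetainedforDEX yes), atypical (no) and outside cells, 3670646, 10418228 and 6074494 in typical wild-type, heterozygous and homozygous cells, and scaled by that sum to CPM. Levels carry exact Poisson, ratios exact conditional binomial and shares Clopper-Pearson 95% intervals, for counting error only. The paper's test over cells was not repeated, because cells are not replicates of a genotype. Comparisons used a log2 ratio of 0.5 as the size and a mean of at least 20 CPM for all genes. Cells were thinned to 1000 UMIs for shares, and 0 cells were left out.

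Outside cells were clustered (2000 variable genes without the 8 members and the other listed bHLH genes, 20 components, 15 neighbors, Leiden resolution 0.5) and named from markers listed beforehand. The criterion for a name was set after the clusters were seen. It asked for at least 3 markers 2-fold up at 20 CPM or more, and at least 1 marker in the top 10 genes. No other class could have more markers up or more in the top 10, and a tie in markers up was settled by the top 10. The members and lists were chosen with earlier results of these data known. Named genes were the members, *Tbr1*, family genes past 0.5 or at the ends of the range, the top family gene of each class, those leading a named cluster, and the 3 genes most like each member. *Usf1* and *Id1* (homozygous over heterozygous) and the genes that describe unnamed clusters, *Nhlh2* among them, were named after their values were seen. Promoters came from a RefSeq table (GRCm38.p6), gene positions from GENCODE vM21. Coordinates and promoter of *Tcf4* are not reported here.

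Alternatives were TMM and median-of-ratios factors, another denominator, UMIs per cell, means over cells, atypical cells included, thinning, top cells removed, empty-droplet subtraction (26.2, 13.9 and 20.2% of UMIs for wild-type, heterozygous and homozygous), Leiden resolution 1 and other thresholds. The subtracted share was the largest that the microglia, endothelial, mural and meningeal fibroblast markers allow in typical cells. It is an upper limit, not an estimate of free RNA. The scripts were tested on simulated data. Python 3.11.15, numpy 2.4.6, pandas 2.3.3, scipy 1.17.1, scikit-learn 1.9.0, leidenalg 0.10.2, R 4.3.3 and edgeR 4.0.16 (TMM factors on the deposited counts) were used.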

Additional observations from a re-analysis of the deposited data

Results flagged for a closer look

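The log2 CPM ratio of *Tcf4* in atypical over typical neuronal cells was looked at again because its sign differed between genotypes. Wild-type cells gave 0.30 (0.03 to 0.57), heterozygous cells −0.27 (−0.89 to 0.29) and homozygous cells −0.43 (−0.77 to −0.09). The atypical cells behind these values gave 141, 26 and 80 UMIs of *Tcf4*. With 1 library per genotype the difference between the ratios was not tested.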

How the results depend on the processing

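No paired analysis was possible because each genotype has 1 library. For the same reason no replicate could be left out. Of 216 recomputed genotype ratios of the members, 203 stayed within the counting interval. Ratios near 0 changed sign more often, as for *Neurod1* (3 of 9 alternatives kept the sign) and *Bhlhe22* (4 of 9) between the mutants. Among ratios whose interval excludes 0, 1 changed sign, *Neurod6* homozygous over wild-type, which was −0.16 as mean UMIs per cell. With that measure the members past 0.5 in that comparison were *Neurod1*, *Tcf4* (−0.65) and *Id4*, and the median of all genes was −0.34. *Bhlhe22* ranged from 0.21 to 0.66 in homozygous over wild-type and from 0.46 to 0.75 in heterozygous over wild-type. The count of 3 members past 0.5 in heterozygous over wild-type became 5 with cells thinned to 1000 UMIs, which added *Tcf12* and *Id4*, and 1 with the empty-droplet profile subtracted. The count of 0 between the mutants became 1 with atypical cells included (*Id4*) and 1 with thinned cells (*Tcf12*), and the cause of these moves was not tested. Of 233 ratios between cell groups 203 stayed within their interval. The typical over outside ratio of *Id2* reversed with median-of-ratios factors, to 0.070 in wild-type, 0.014 in heterozygous and 0.11 in homozygous cells, and to 0.093 in heterozygous cells when thinned. Counted by sign alone, 8 of 8 members had 1 sign in this contrast in the 3 libraries, and 6 with thinned cells. In atypical over typical cells 7 did, *Neurod1* on 1 heterozygous UMI and *Neurod2* on 0 among them, and 6 by means over cells. The share of all genes with 1 sign over the 3 libraries was not computed for either contrast. Nor was the share past 0.5 with thinned cells, atypical cells included or the empty-droplet profile subtracted. These member counts are therefore descriptions and do not set the members apart from other genes. Without the filter on CPM, 4485 of 14043 genes were past 0.5 in homozygous over wild-type, 4574 of 14125 in heterozygous over wild-type and 3149 of 14313 between the mutants. With a size of 1, the filtered counts were 22, 32 and 18, beside 375, 441 and 83 at 0.5. Depth limits *Neurod1* and *Tcf12* most, each with under 80 UMIs per library in typical cells.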

Other observations

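The bHLH gene with the highest CPM, members aside, differed between the classes of sorted cells. *Id3*, an inhibitor of E proteins, was the family gene with the highest CPM in astrocyte or radial glia-like (1253 CPM), meningeal fibroblast-like (690 CPM), endothelial-like (593 CPM) and mural-like cells (417 CPM). *Olig1*, of the oligodendrocyte lineage, was the top one in oligodendrocyte lineage-like (1490 CPM), cycling-like (274 CPM) and excitatory neuron-like cells (171 CPM, beside 193 CPM in typical neuronal cells). In cycling-like cells it had 315 UMIs beside 298 of *Hes6*, and in excitatory neuron-like cells 253 beside 245 of *Id3*. The first place in these 2 classes therefore rests on close counts. *Npas1*, a gene of interneurons, had 107 CPM in inhibitory neuron-like cells and *Bhlhe41* had 149 CPM in microglia-like cells. These levels are UMI counts summed over the 3 libraries, and free RNA was not subtracted from them. Levels in empty droplets were not computed for these genes, so a top place does not show that a class expresses the gene.

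Some family genes were among the 10 leading genes of a cluster. *Hes5*, a Notch effector of radial glia, had 801 CPM in the larger astrocyte or radial glia-like cluster, and in the *Pdgfra* cluster *Olig2* had 742 CPM and *Olig1* had 2091 CPM. In the cluster led by *Reln* and *Ndnf*, *Nhlh2* had 439 CPM (374 to 512), beside 0.198 CPM in typical neuronal cells.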
